A study of Mus musculus with 24 samples.

Results

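Sterol and fatty acid synthesis was followed through 34 genes, 22 of a sterol branch (mevalonate and sterol enzymes and their regulators) and 12 of a fatty acid branch. The members were chosen by symbol, as a fixed list present in both RNA count tables, out of 24421 gene symbols in each table. The choice was made with earlier results of these data known, so shares of members set beside all genes are descriptions only. The study knocked down Fto, an RNA demethylase that removes N6-methyladenosine (m6A), in B16-OVA cells, a C57BL/6 mouse melanoma line that presents ovalbumin, and looked at the tumour cells and at T cells placed beside them. RNA-seq compared 3 shFto with 3 shNC tumour cell libraries, shNC being the control hairpin. A second RNA-seq set held OT-I CD8+ T cells, which carry a T cell receptor for ovalbumin on the C57BL/6 background. They were purified as naive cells, kept with shFto-1, shFto-2 or shNC tumour cells in medium containing IL-2 for 8 hours and sorted, giving 2 libraries per tumour line. ATAC-seq, which maps open chromatin, covered 3 shFto and 3 shNC tumour cell libraries. m6A-seq had 1 antibody library each from shFto cells in DMSO, shNC cells given 5 µM Dac51 for 48 hours, and shNC cells in DMSO. All tumour cells were grown under puromycin. The labels do not say which shFto line gave the tumour RNA, ATAC or m6A libraries, nor whether replicates came from different cultures or animals. The spread behind every p-value is therefore that of these libraries and may be technical.

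Cells build cholesterol from acetyl-CoA through mevalonate, farnesyl diphosphate, squalene and lanosterol, and build fatty acids from the same acetyl-CoA through malonyl-CoA and palmitate, which is then lengthened and desaturated. Both branches are driven by the transcription factors SREBP-1 and SREBP-2, encoded by Srebf1 and Srebf2. Scap carries these factors out of the endoplasmic reticulum when sterols are low, and Insig1 and Insig2 hold Scap back when sterols are plentiful. Activated T cells are known to raise both branches as they grow, and melanoma cells use them for membranes.

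The bases before the start site are shown here for 8 of the sterol-branch genes that were higher in at least 1 of the comparisons described further on. Sterol genes are known to be read from short promoters with SREBP and NF-Y sites. Each line gives the 200 bases before an annotated start, 5′ to 3′ on the gene's strand, from RefSeq on GRCm38.p6. Capitals mark exact matches to TCACNCCAC (a core of the sterol regulatory element), CCAAT or its complement ATTGG (the NF-Y box), and CACGTG (an E-box, the same on both strands). Dhcr7, Insig2, Srebf2 and Scap were also higher in a comparison but are not printed. Of these, Dhcr7 and Scap held 0 matches to any of these motifs in the 200 bases before the start used. The start chosen decides this: before other annotated starts, within the same distance, Dhcr7 held CACGTG and CCAAT and Scap held CACGTG.
Hmgcs1, chr13:119690151-119690350, plus strand: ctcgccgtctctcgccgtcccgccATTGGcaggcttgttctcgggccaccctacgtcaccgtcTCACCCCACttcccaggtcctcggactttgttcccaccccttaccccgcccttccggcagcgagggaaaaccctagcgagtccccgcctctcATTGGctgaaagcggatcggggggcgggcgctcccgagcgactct
Idi1, chr13:8885406-8885605, plus strand: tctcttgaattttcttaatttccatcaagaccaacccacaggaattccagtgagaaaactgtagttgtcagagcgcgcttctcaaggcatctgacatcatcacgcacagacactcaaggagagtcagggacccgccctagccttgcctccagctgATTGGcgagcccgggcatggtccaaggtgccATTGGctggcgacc
Lss, chr10:76531405-76531604, plus strand: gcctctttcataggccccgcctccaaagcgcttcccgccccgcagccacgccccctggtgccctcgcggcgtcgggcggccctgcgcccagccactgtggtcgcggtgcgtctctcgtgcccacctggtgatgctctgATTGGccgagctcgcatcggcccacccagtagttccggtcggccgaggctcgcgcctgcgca
Cyp51, chr5:4104698-4104897, minus strand: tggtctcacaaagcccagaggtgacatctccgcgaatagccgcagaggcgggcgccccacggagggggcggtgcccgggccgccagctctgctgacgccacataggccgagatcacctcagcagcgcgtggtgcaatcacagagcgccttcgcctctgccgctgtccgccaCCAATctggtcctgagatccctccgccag
Msmo1, chr8:64733579-64733778, minus strand: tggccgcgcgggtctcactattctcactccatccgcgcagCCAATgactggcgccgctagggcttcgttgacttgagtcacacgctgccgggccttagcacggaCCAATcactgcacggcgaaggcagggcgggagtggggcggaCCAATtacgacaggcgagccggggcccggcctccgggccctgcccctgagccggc
Hsd17b7, chr1:169969206-169969405, minus strand: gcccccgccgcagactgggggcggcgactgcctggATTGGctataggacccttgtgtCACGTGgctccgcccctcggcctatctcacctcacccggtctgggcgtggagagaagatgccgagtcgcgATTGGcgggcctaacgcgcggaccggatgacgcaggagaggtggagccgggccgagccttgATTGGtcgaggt
Sc5d, chr9:42264301-42264500, minus strand: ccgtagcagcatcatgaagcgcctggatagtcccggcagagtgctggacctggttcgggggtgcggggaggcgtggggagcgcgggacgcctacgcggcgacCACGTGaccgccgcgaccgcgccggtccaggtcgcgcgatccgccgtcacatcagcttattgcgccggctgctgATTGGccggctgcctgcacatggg
Insig1, chr5:28071212-28071411, plus strand: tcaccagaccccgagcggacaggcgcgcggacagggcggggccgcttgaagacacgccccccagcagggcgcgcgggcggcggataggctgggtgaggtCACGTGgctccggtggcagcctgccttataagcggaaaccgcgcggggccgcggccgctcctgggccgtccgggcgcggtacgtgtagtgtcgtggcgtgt

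Over windows of 300 bases (250 before to 50 after the start), RefSeq held a promoter for 27 of the 34 members, 18 of the sterol branch and 9 of the fatty acid branch. CCAAT on either strand was in 23 of the 27 genes, made up of 17 of 18 sterol genes and 6 of 9 fatty acid genes, where 37.4% of all 32851 promoters and 43.6% of 8515 expressed genes held it. TCACNCCAC was found in 1 of the 27, Hmgcs1, with its first base 137 bases before the start, in 1.4% of expressed genes and in 1.24% of all promoters. CACGTG was in 6 of 27 genes, in 12.3% of expressed genes and in 7.15% of all promoters. A match describes letters only, and no comparison of these shares was tested. Only exact matches were counted, so sites that differ from these letters were not searched for.

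The tumour cell libraries held 11152404 to 19665589 counts and the T cell libraries 2628158 to 13066355, so low genes carried more counting error in the T cells, most of all beside shNC replicate 1, the shallowest. Fto had 31.7, 33.5 and 28.2 CPM (counts relative to the library's size, scaled by TMM) in shFto tumour cells and 107, 108 and 91.8 CPM in shNC cells, so its log2 fold change was -1.72 ± 0.098 (SE, edgeR adjusted p = 1.6e-10). T cells carry no hairpin, and their Fto was 42.4 and 38.6 CPM beside shFto-1, 49.9 and 50.4 beside shFto-2, and 36.0 and 47.0 beside shNC. Of 9 CD8 T cell markers, 6 to 8 were at 0 in each tumour library. The summed CPM of 9 melanoma markers was 981 to 1490 in the T cell libraries, or 6.47% to 8.24% of the mean sum in the separate shFto or shNC tumour RNA libraries. Single melanoma markers ranged from 1.4% to 15.9% of their tumour level there. In these bulk samples, fewer cells of a type and less RNA per cell cannot be told apart.

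In shFto tumour cells the sterol-branch genes that changed were higher, and the fatty acid genes changed both ways. Of the 22 sterol-branch genes 9 were higher and 0 lower than in shNC cells, and of the 12 fatty acid genes 3 were higher and 4 lower. All 34 members passed the filter on low counts, and 16 of them, 47.1%, passed the edgeR test, against 32.8% of all 11718 genes tested (15.9% higher and 16.9% lower). The median log2 fold change was 0.13 over the sterol branch and -0.13 over the fatty acid branch, where all genes tested had a median of 0. Scaled by library totals in place of TMM, the fatty acid median was -0.07, with 6 genes above and 6 below 0, and the sterol median was 0.18. No sterol gene was lower at an unadjusted p under 0.05 either, and DESeq2 called 0. Without shFto replicate 3 the sterol branch had 1 gene called lower, Scap (adjusted p = 0.00505, range 0.00505 to 0.456 over 11 alternatives).

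Sc5d, Insig2 and Dhcr7 had the largest log2 fold changes of the sterol branch in the tumour cells. Sc5d, which puts in a late double bond of the sterol ring, had 46.7, 46.2 and 35.8 CPM in shFto cells and 25.1, 25.2 and 24.4 CPM in shNC cells (log2 fold change 0.78 ± 0.115 SE, adjusted p = 4.71e-05). Dhcr7, the reductase that forms cholesterol from its last precursor in one arm of the pathway, had 86, 77 and 74.3 CPM in shFto cells and 53.5, 55.6 and 53.4 CPM in shNC cells (0.55 ± 0.088, adjusted p = 0.000117). Every shFto library lay above every shNC library for both genes. Insig2 had 42.7, 44.9 and 43.6 CPM in shFto cells and 23.2, 29.7 and 26 CPM in shNC cells (0.73 ± 0.108, adjusted p = 5.17e-05). Insig1 had 138, 144 and 131 CPM in shFto cells and 98, 101 and 112 CPM in shNC cells (0.41 ± 0.081, adjusted p = 0.000838). Both Insig genes were thus higher with no overlap, while Srebf2 and Scap, the factor and its carrier, did not pass the test. Srebf2 had 241, 231 and 257 CPM in shFto cells and 267, 259 and 239 CPM in shNC cells (-0.07 ± 0.08, adjusted p = 0.553). Scap had 78.6, 76.8 and 103 CPM in shFto cells and 107, 102 and 87.9 CPM in shNC cells (-0.2 ± 0.106, adjusted p = 0.15).

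At the entry to the pathway Hmgcs1, which makes HMG-CoA, had 110, 119 and 84.7 CPM in shFto cells and 74, 73.3 and 72 CPM in shNC cells (0.51 ± 0.103, adjusted p = 0.00083), with no overlap. It was the single 1 of 6 mevalonate-segment genes to pass. Mvk and Pmvk, the kinases of mevalonate, Mvd, Idi1 and Fdps had log2 fold changes of -0.17 to 0.17. In the squalene-to-sterol segment 6 of 11 genes were higher. Hsd17b7, a sterol ketone reductase, had 20.9, 22.5 and 18.1 CPM in shFto cells and 14, 14.6 and 15.2 CPM in shNC cells (0.48 ± 0.131, adjusted p = 0.00792). Hmgcs1 and Hsd17b7 had their lowest shFto value in replicate 3, as did Sc5d.

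The sterol calls for Sqle, Cyp51 and Msmo1 in the tumour cells were lost when some single libraries were left out. Over the 11 alternatives the log2 fold change was 0.19 to 0.34 for Sqle, 0.18 to 0.39 for Cyp51 and 0.26 to 0.42 for Msmo1. Leaving out a library also moved the calls among all genes, from 3841 to between 2468 and 4423. Sqle, the squalene epoxidase, had 122, 134 and 110 CPM in shFto cells and 88.5, 105 and 110 CPM in shNC cells (0.27 ± 0.094, adjusted p = 0.0327, range 0.00591 to 0.19 over 11 alternatives). Its adjusted p was 0.1 without shFto replicate 1, 0.127 without shFto replicate 2 and 0.19 without shNC replicate 1. Cyp51, the lanosterol demethylase, had 166, 190 and 142 CPM in shFto cells and 129, 135 and 144 CPM in shNC cells, so the groups overlapped (0.29 ± 0.094, adjusted p = 0.0239, range 0.00107 to 0.146). That call was lost without shFto replicate 1 (0.078) or 2 (0.146) and without shNC replicate 1 (0.0977) or 2 (0.0613). Msmo1, the methylsterol oxidase that follows Cyp51, also overlapped, with 95.4, 99 and 78.4 CPM in shFto cells and 67, 71.2 and 79.6 CPM in shNC cells (0.32 ± 0.097, adjusted p = 0.0151, range 0.000903 to 0.087). It was lost without shFto replicate 1 (0.087) or 2 (0.0559) and without shNC replicate 1 (0.0791). Tm7sf2, a sterol reductase of low level, had 9.04, 8.37 and 7.75 CPM in shFto cells and 5.39, 5.69 and 8.28 CPM in shNC cells, and passed the test only without shNC replicate 3, of the 11 alternatives (adjusted p = 0.146 with it and 0.0336 without it, range 0.0336 to 0.365). Fdft1, Lss, Nsdhl, Ebp and the sterol carrier Stard4 had changes of -0.06 to 0.09.

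**Figure D1:**
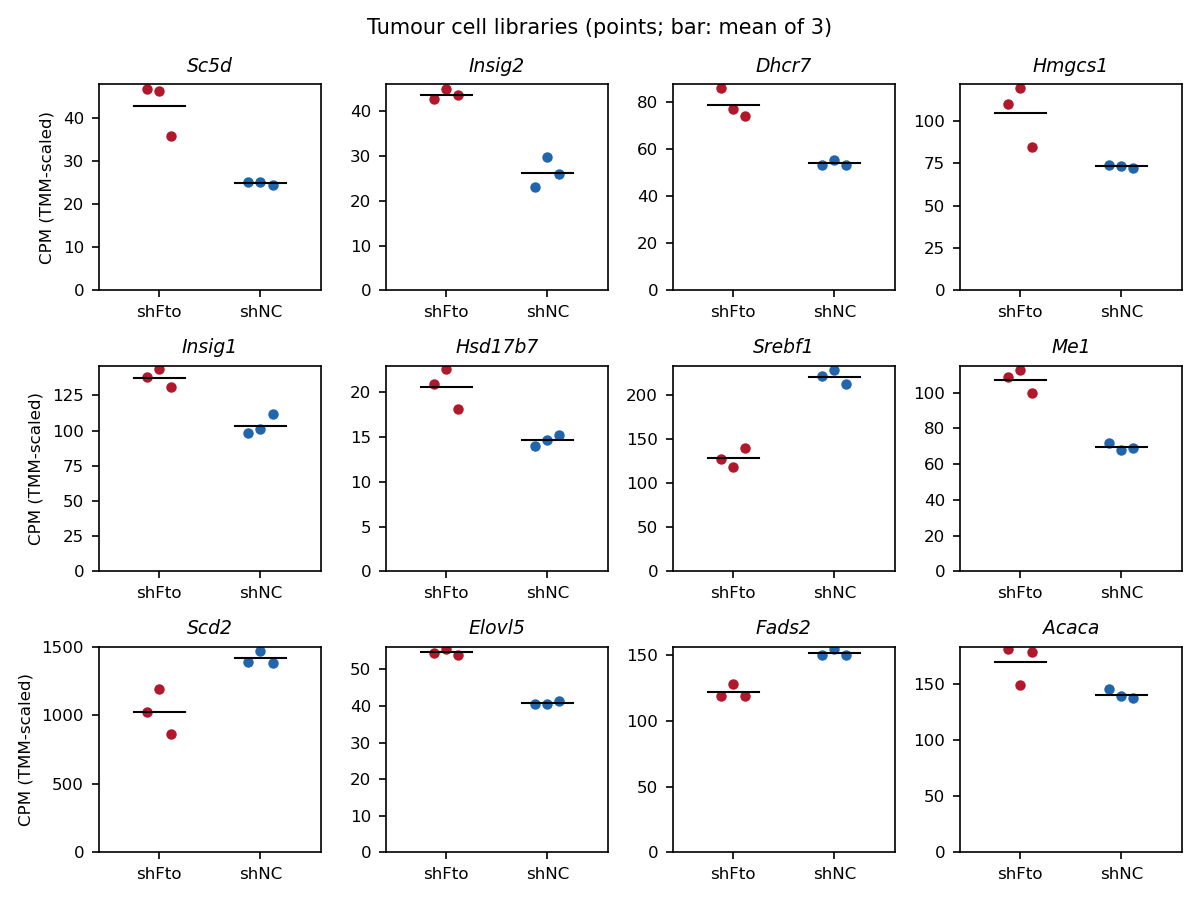
CPM (TMM-scaled, axis from 0) of 12 members in the 3 shFto libraries (left in each panel) and the 3 shNC libraries (right) of B16-OVA cells, with a bar at each mean. Sc5d, Insig2, Dhcr7, Hmgcs1, Insig1, Hsd17b7, Me1, Elovl5 and Acaca lie higher in shFto cells and Srebf1, Scd2 and Fads2 lower, with no overlap between groups in any of the 12.

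On the fatty acid side of the tumour cells the regulator fell most. Srebf1 had 128, 118 and 140 CPM in shFto cells and 222, 228 and 213 CPM in shNC cells (-0.78 ± 0.082, adjusted p = 1.09e-06), with a wide gap between the groups. Scd2, a desaturase that makes monounsaturated fatty acids, had 1020, 1190 and 862 CPM in shFto cells and 1390, 1470 and 1380 CPM in shNC cells (-0.46 ± 0.101, adjusted p = 0.00166). Fads2, which starts the making of polyunsaturated fatty acids, had 119, 128 and 119 CPM in shFto cells and 150, 155 and 150 CPM in shNC cells (-0.31 ± 0.077, adjusted p = 0.00386). No shFto library reached the lowest shNC library for these 3 genes. Scd1, the other desaturase, had 180, 183 and 160 CPM in shFto cells and 202, 219 and 185 CPM in shNC cells, also without overlap, but missed the threshold (-0.21 ± 0.085, adjusted p = 0.0609, range 0.0264 to 0.277). It passed with the replicate number as a block (-0.21, adjusted p = 0.042) and without shFto replicate 2 (0.049) or shNC replicate 3 (0.0264). Scd1 and Scd2 are close copies, and how reads that match both were counted is not given in the sources used here.

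Of the fatty acid branch Me1, Elovl5 and Acaca were higher in the same cells, which is 1 of 3 substrate genes, 1 of 6 desaturation and elongation genes and 1 of the 2 core synthesis genes. Me1, the malic enzyme that supplies NADPH, had 109, 113 and 100 CPM in shFto cells and 72, 67.7 and 68.9 CPM in shNC cells (0.63 ± 0.083, adjusted p = 1.46e-05). Elovl5, an elongase of polyunsaturated chains, had 54.6, 55.5 and 53.9 CPM in shFto cells and 40.6, 40.5 and 41.4 CPM in shNC cells (0.42 ± 0.09, adjusted p = 0.0015). Neither gene's groups overlapped, and the 3 libraries of each group were close together. The core enzymes split: Acaca, which makes malonyl-CoA, had 181, 149 and 178 CPM in shFto cells and 145, 139 and 137 CPM in shNC cells (0.27 ± 0.085, adjusted p = 0.0184, range 0.00221 to 0.135). Fasn, the synthase that turns malonyl-CoA into palmitate, had 928, 854 and 1040 CPM in shFto cells and 1210, 1170 and 1030 CPM in shNC cells, which overlapped (-0.27 ± 0.092, adjusted p = 0.0277, range 0.00469 to 0.15). Both calls were weak. Acaca was lost without shFto replicate 1 (0.135) or shNC replicate 2 (0.051). Fasn was lost without shFto replicate 1 (0.118) or 2 (0.123), without shNC replicate 1 (0.15) or 2 (0.0943), and when libraries were scaled by their totals alone (0.064). Acss2, which activates acetate, missed the threshold (-0.32 ± 0.138, adjusted p = 0.0814, range 0.0283 to 0.366) but passed without shNC replicate 2 (0.0283). Acly, Elovl6 and Fads1 had changes of -0.04 to 0.06.

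Summed over its members, the sterol branch made up 1700, 1770 and 1660 CPM in shFto cells and 1480, 1540 and 1550 CPM in shNC cells. The fatty acid branch made up 3360, 3410 and 3270 CPM in shFto cells and 4090, 4120 and 3820 CPM in shNC cells. The sums therefore moved in opposite directions without overlap, and the fatty acid sum rests mainly on Scd2 and Fasn. Of 34 members 14 had groups that did not overlap, where 45.1% of all genes tested did. Melanoma markers moved in the same libraries: 6 of 9 passed the test as higher in shFto cells, with a summed level of 18500 to 19100 CPM against 14900 to 15700 CPM in shNC cells, and their part in the lipid gene results was not tested.

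Related lists, chosen with earlier results of these data known, were counted in the tumour cells in the same way. Over all genes tested 15.9% were higher and 16.9% lower, and several of the counts below lie near these shares. Of 12 genes for SREBP processing and sterol sensing 2 were higher and 10 did not pass: Prkaa1, a catalytic subunit of the energy sensor AMPK (0.55 ± 0.081, adjusted p = 4.52e-05), and Mbtps2, a membrane protease that frees SREBP (0.55 ± 0.152, adjusted p = 0.00866, range 0.000768 to 0.0674). The Mbtps2 call was lost without shFto replicate 2 (0.0674). Of 17 tested genes for sterol uptake, transport, storage and efflux 3 were higher and 3 lower, the lower ones being Gramd1b and Gramd1a, which move cholesterol from the plasma membrane inward (-0.64 ± 0.133 and -0.34 ± 0.088), and Nr1h2, a sterol-sensing nuclear receptor (-0.45 ± 0.099). Of 22 other fatty acid and glycerolipid genes 4 were higher, among them the elongase Elovl7 (0.82 ± 0.157) and the elongation-cycle enzymes Hacd2 (0.48 ± 0.1) and Hsd17b12 (0.37 ± 0.08), and 3 were lower. Of 19 fatty acid oxidation genes 1 was higher, Eci2 (0.52 ± 0.089), and 3 lower, led by Cpt1c (-1.31 ± 0.149) and the short-chain dehydrogenase Acads (-0.58 ± 0.093). Of 14 genes on the isoprenoid list, where the place of Nudt19 is uncertain, 2 were lower, Nudt19 and Rabggtb. Each was lost in 6 of 11 alternatives: Nudt19 (adjusted p = 0.0292, range 0.00401 to 0.169) without shFto replicate 1 (0.164) or 3 (0.0541) or shNC replicate 1 (0.076) or 3 (0.169), and Rabggtb (adjusted p = 0.0371, range 0.0267 to 0.21) without shFto replicate 1 (0.0708), 2 (0.0646) or 3 (0.0683) or shNC replicate 3 (0.21).

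T cells kept beside Fto-knockdown tumour cells differed from those beside shNC cells in the same pathways. With both shFto lines averaged, 10 of 22 sterol genes were higher and 1 lower, and 3 of 12 fatty acid genes were higher and 3 lower. That is 17 of 34 members, or 50.0%, against 32.9% of all 12824 genes tested (20.3% higher and 12.7% lower). The median log2 fold change was 0.4 over the sterol branch and -0.2 over the fatty acid branch, with -0.01 over all genes. Scaling by library totals in place of TMM moved the median of all genes from -0.01 to -0.179 on the log2 scale and the share of calls that were higher from 61.5% to 43.0%, and DESeq2's size factors gave 54.9%. The sterol branch median was then 0.23 with library totals and 0.34 with DESeq2's size factors, and the fatty acid median -0.37 and -0.26. For the tumour cells the same change took the share of higher calls from 48.5% to 60.0% and the median of all genes to 0.053.

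Taken line by line, T cells beside shFto-1 had 6 sterol genes higher and 0 lower (1 lower at an unadjusted p under 0.05, 0 by DESeq2) and 3 fatty acid genes higher and 3 lower, where 22.2% of all genes passed (15.4% higher and 6.82% lower). T cells beside shFto-2 had 9 sterol genes higher and 1 lower and 3 fatty acid genes higher and 4 lower, where 33.7% of all genes passed (20.4% higher and 13.3% lower). Both lines share the shNC libraries. Without shFto-1 replicate 1 the shFto-1 comparison called 3 sterol genes higher and 1 fatty acid gene lower, and without shNC replicate 2 it called 1 fatty acid gene lower.

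**Figure D2:**
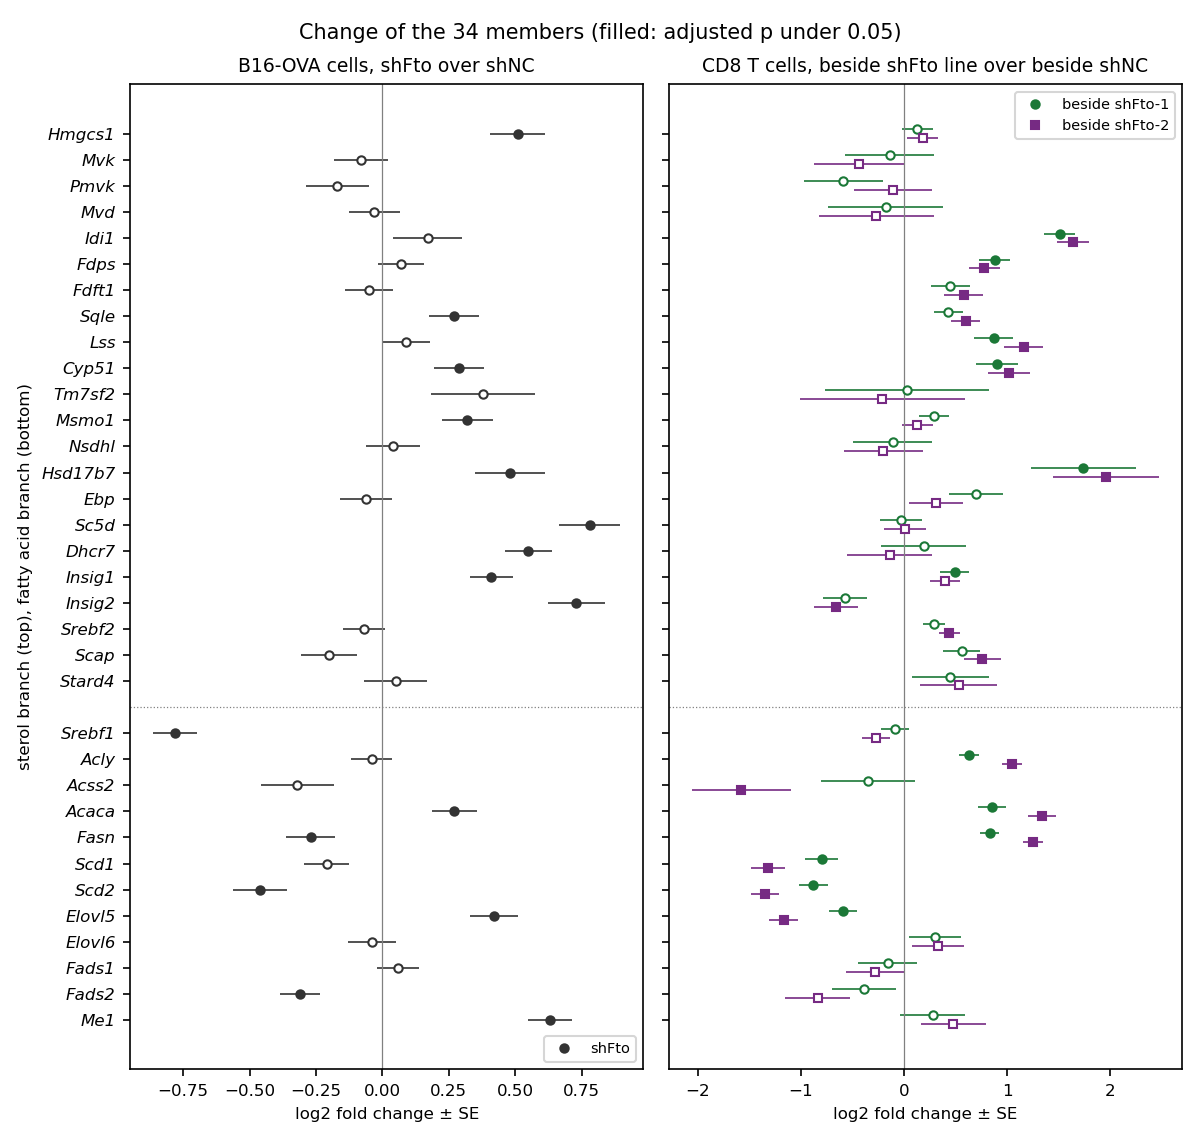
Log2 fold change ± SE of the 34 members, sterol branch above and fatty acid branch below the dotted line, for shFto over shNC tumour cells (left, 3 libraries a group) and for T cells beside shFto-1 (circles) and shFto-2 (squares) over T cells beside shNC (right, 2 libraries a group). Filled points passed an adjusted p of 0.05. Hmgcs1, Sc5d, Dhcr7 and Insig2 stand out in tumour cells and Idi1, Hsd17b7, Lss and Cyp51 in T cells, and the horizontal scales differ.

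Of the 6 mevalonate-segment genes 2, Idi1 and Fdps, were higher in the T cells. Idi1, which isomerises the basic isoprene unit, had 73.6 and 63 CPM beside shFto-1, 81.2 and 68.2 beside shFto-2, and 24.9 and 23.6 beside shNC (1.57 ± 0.141 for the mean of the lines, adjusted p = 4.82e-05). Fdps, which joins these units to farnesyl diphosphate, had 59.7 and 48.2 CPM beside shFto-1, 51.4 and 50.4 beside shFto-2, and 30.3 and 29.1 beside shNC (0.83 ± 0.134, adjusted p = 0.000961). For both, all 4 libraries beside shFto lines lay above both libraries beside shNC. Hmgcs1, the gene at the entry, did not pass: it had 57.4 and 51.2 CPM beside shFto-1, 54.7 and 59.2 beside shFto-2, and 42.7 and 55.4 beside shNC (0.16 ± 0.131, adjusted p = 0.419). Mvk, Pmvk and Mvd, all under 15 CPM in every library, had changes of -0.35 to -0.22 that did not pass.

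Further down, Lss, which closes squalene epoxide into lanosterol, had 26.9 and 26 CPM beside shFto-1, 31.7 and 32.9 beside shFto-2, and 11.8 and 16.2 beside shNC (1.02 ± 0.168, adjusted p = 0.00112). Cyp51 had 52.3 and 61.4 CPM beside shFto-1, 57 and 65.7 beside shFto-2, and 21.7 and 35.8 beside shNC (0.96 ± 0.183, adjusted p = 0.00263). Hsd17b7 had 14.5 and 7.88 CPM beside shFto-1, 14.5 and 12.2 beside shFto-2, and 1.07 and 4.88 beside shNC (1.85 ± 0.471, adjusted p = 0.0128). These 3 genes were separate between the groups, but the 1.07 CPM of Hsd17b7 stands for 3 counts. Idi1, Fdps, Lss, Cyp51 and Hsd17b7 passed in each of the 12 alternatives to the averaged comparison. In the shFto-1 comparison alone, Lss was lost without shFto-1 replicate 1 (adjusted p = 0.0523, against 0.00845 with it, range 0.00153 to 0.0523) and Cyp51 without shFto-1 replicate 2 (0.0533 against 0.011, range 2.37e-06 to 0.0533). Hsd17b7 was lost there without shFto-1 replicate 1 (0.252 against 0.0365, range 0.000716 to 0.252) or shNC replicate 1 (0.0834), with library totals (0.0544) and with the 2 groups alone (0.0885), and in the shFto-2 comparison without shFto-2 replicate 1 (0.0529 against 0.0139, range 4.15e-05 to 0.0529).

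The genes of squalene synthesis and epoxidation had smaller fold changes. Sqle had 44.9 and 38.8 CPM beside shFto-1, 45.8 and 49.3 beside shFto-2, and 29.9 and 32.4 beside shNC (0.51 ± 0.127, adjusted p = 0.0112, range 0.00815 to 0.0717), and was lost without shNC replicate 1 (0.0717) or with library totals (0.0611). Fdft1, the squalene synthase, had 30.4 and 32.5 CPM beside shFto-1, 32.6 and 35.8 beside shFto-2, and 17.8 and 26.4 beside shNC (0.51 ± 0.168, adjusted p = 0.0399, range 0.0103 to 0.27). The Fdft1 call failed in 8 of 12 alternatives, among them leaving out shFto-1 replicate 1 (0.0572) or 2 (0.0929), shFto-2 replicate 1 (0.0597) or 2 (0.0939), or shNC replicate 1 (0.27). Msmo1, Sc5d and Dhcr7, which were higher in shFto tumour cells, had changes of 0.21, -0.01 and 0.02 in T cells and did not pass. Ebp, a sterol isomerase, passed only without shNC replicate 2, of the 12 alternatives (0.51 ± 0.234, adjusted p = 0.132 with it and 0.0159 without it, range 0.0159 to 0.601).

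In T cells the Insig genes went opposite ways, and Srebf2 and Scap were higher. Insig1 had 48.1 and 49.2 CPM beside shFto-1, 41.9 and 49.3 beside shFto-2, and 31.7 and 36.5 beside shNC (0.44 ± 0.129, adjusted p = 0.0235, range 0.0168 to 0.159). Insig2 had 11.6 and 12.6 CPM beside shFto-1, 10.9 and 11.8 beside shFto-2, and 18.2 and 17.6 beside shNC (-0.61 ± 0.184, adjusted p = 0.0279, range 0.00836 to 0.12). No library of 1 group crossed into the other for either gene. Srebf2 had 189 and 184 CPM beside shFto-1, 192 and 222 beside shFto-2, and 156 and 150 beside shNC (0.36 ± 0.093, adjusted p = 0.0132, range 0.00565 to 0.152). Scap had 91.2 and 63.6 CPM beside shFto-1, 90.5 and 90.3 beside shFto-2, and 60.5 and 48.1 beside shNC (0.66 ± 0.162, adjusted p = 0.0105, range 6.16e-06 to 0.111). Each of these 4 calls was lost in some alternatives, and none changed direction. Over the 12 alternatives the log2 fold change was 0.27 to 0.6 for Insig1 and -0.78 to -0.55 for Insig2. It was 0.19 to 0.39 for Srebf2 and 0.49 to 0.78 for Scap. Leaving out a library also leaves less to test with, so a lost call need not mean that 1 library carried it. Insig1 was lost without shFto-1 replicate 2 (0.0661), shFto-2 replicate 2 (0.079) or shNC replicate 1 (0.159), and with library totals (0.146). Insig2 was lost without shFto-1 replicate 1 (0.0949), shFto-2 replicate 1 (0.0682) or 2 (0.0505), or shNC replicate 1 (0.0745) or 2 (0.12), and with no filter on low counts (0.0642). Srebf2 was lost without shNC replicate 1 (0.0509) or 2 (0.0655) and with library totals (0.152), and Scap without shNC replicate 2 (0.111).

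Srebf1, the regulator that was lower in shFto tumour cells, had 59.2 and 53.6 CPM in T cells beside shFto-1, 53.8 and 45.6 beside shFto-2, and 63 and 57.9 beside shNC, with overlap (-0.18 ± 0.118, adjusted p = 0.297, range 0.0412 to 0.537 over 12 alternatives). Scaled by library totals it was called lower in the averaged comparison (-0.35, adjusted p = 0.0412) and beside shFto-2 (-0.44, adjusted p = 0.0273).

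In the fatty acid branch of the T cells Fasn, Acaca and Acly were higher, and Scd2, Scd1 and Elovl5 lower. Fasn had 521 and 539 CPM beside shFto-1, 678 and 741 beside shFto-2, and 313 and 283 beside shNC (1.04 ± 0.087, adjusted p = 3.76e-05). Acaca had 138 and 180 CPM beside shFto-1, 215 and 232 beside shFto-2, and 87.6 and 88.4 beside shNC (1.09 ± 0.123, adjusted p = 0.00013). Acly, which cuts citrate to give acetyl-CoA for both branches, had 290 and 301 CPM beside shFto-1, 398 and 393 beside shFto-2, and 204 and 179 beside shNC (0.84 ± 0.089, adjusted p = 9.39e-05). The 3 genes lay in the same order in every case, highest beside shFto-2 and lowest beside shNC.

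Of 6 desaturation and elongation genes 3 were lower and 3 did not pass. Scd2 had 152 and 130 CPM beside shFto-1, 98.5 and 106 beside shFto-2, and 224 and 292 beside shNC (-1.11 ± 0.116, adjusted p = 9.05e-05). Scd1 had 23.1 and 24.2 CPM beside shFto-1, 17.2 and 15.7 beside shFto-2, and 37.4 and 44.1 beside shNC (-1.06 ± 0.135, adjusted p = 0.00026). Elovl5 had 57.9 and 56.3 CPM beside shFto-1, 42.3 and 33.4 beside shFto-2, and 83.3 and 88 beside shNC (-0.88 ± 0.117, adjusted p = 0.000321). The groups were apart for all 3, with shFto-2 lowest. All 6 of these fatty acid calls held in each of the 12 alternatives to the averaged comparison. In the shFto-1 comparison alone, Scd1 was lost without shFto-1 replicate 1 (adjusted p = 0.0594) or shNC replicate 2 (0.0628, range 9.39e-05 to 0.0628), and Elovl5 without shFto-1 replicate 1 (0.0786) or 2 (0.0526) or shNC replicate 2 (0.0836, range 9.47e-05 to 0.0836). Acss2 passed in the shFto-2 comparison (-1.58 ± 0.478, adjusted p = 0.0281, range 0.00606 to 0.369), on levels of 3.92 and 2.54 CPM beside that line, against 6.05 and 13 CPM beside shNC, and was lost without shFto-2 replicate 2 (0.133) or shNC replicate 2 (0.369). Elovl6, Fads1, Fads2 and Me1, all under 20 CPM, did not pass in the averaged comparison.

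**Figure D3:**
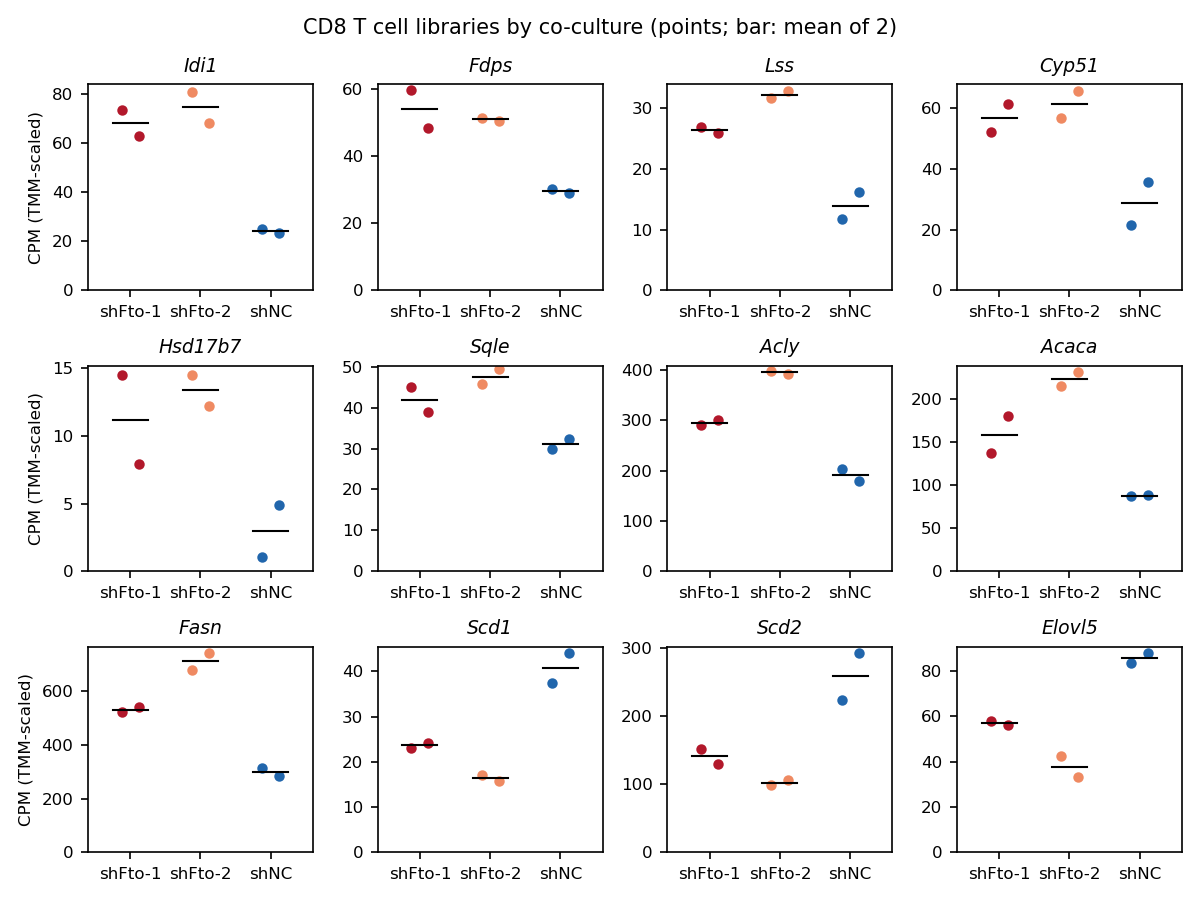
CPM (TMM-scaled, axis from 0) of 12 members in T cells by the tumour line they were kept with (shFto-1, then shFto-2, then shNC, left to right, 2 libraries each, bar at the mean). The first 9 genes lie higher beside both shFto lines than beside shNC, and Scd1, Scd2 and Elovl5 lie lower, with no overlap in any panel.

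Between the lines themselves, T cells beside shFto-2 and those beside shFto-1, 0 of the 34 members passed the edgeR test, where 2.0% of all genes did (0.515% higher and 1.48% lower). At an unadjusted p under 0.05, 3 fatty acid genes were higher and 4 lower and no sterol gene was called, and DESeq2 called 3 fatty acid genes higher and 2 lower, as did edgeR with no filter on low counts. With the replicate number as a block Acaca (adjusted p = 0.0436), Fasn (0.0459) and Acly (0.0491) passed. Fasn was nearest to the threshold (0.42 ± 0.094, adjusted p = 0.0543, range 0.000125 to 0.329), then Acly (0.42 ± 0.096, adjusted p = 0.0567, range 0.00024 to 0.341). Elovl5 (-0.59 ± 0.137, adjusted p = 0.0622, range 0.00358 to 0.364) passed without shFto-2 replicate 1 (0.0178), and Acaca (0.5 ± 0.128, adjusted p = 0.0822, range 0.00144 to 0.487) without shFto-1 replicate 2 (0.0417). A p above the threshold does not show that the lines acted alike.

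Markers moved alongside. The 9 CD8 T cell markers summed to 3620 and 3650 CPM beside shFto-1, 3130 and 2980 beside shFto-2, and 4310 and 4150 beside shNC, and 8 of 9 were lower in the averaged comparison, led by Cd2 (-0.66 ± 0.09), Cd8b1 (-0.55 ± 0.084) and Cd247 (-0.51 ± 0.089). The 9 melanoma markers summed to 1490 and 1390 CPM beside shFto-1, 1300 and 1460 beside shFto-2, and 981 and 1250 beside shNC, and 3 of 9 were higher: Pmel (2.15 ± 0.118), Tyr (1.97 ± 0.329) and Tyrp1 (0.68 ± 0.102). None of the 9 was at 0 in any T cell library. Levels in T cells as a share of the tumour RNA libraries (the shFto mean for both shFto lines, the shNC mean for shNC), from separately scaled tables, were 13.6%, 9.44% and 20.2% for Scd1 and 13.8%, 9.99% and 18.3% for Scd2, beside shFto-1, shFto-2 and shNC. Dhcr7, Fads1, Fads2 and Me1 were at 5.81% to 13.5% by the same measure, within the 1.4% to 15.9% of single melanoma markers. The part of tumour RNA in the T cell levels of these 6 genes was not tested. By the same measure, beside shFto-1, shFto-2 and shNC in turn, Idi1 was at 354%, 388% and 142%. Elovl5 was at 104%, 69.2% and 210%, and Acaca at 93.9%, 132% and 62.7%.

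The summed sterol branch was 846 and 750 CPM in T cells beside shFto-1, 823 and 874 beside shFto-2, and 560 and 595 beside shNC. The summed fatty acid branch was 1300 and 1340 CPM beside shFto-1, 1550 and 1630 beside shFto-2, and 1060 and 1110 beside shNC. Both sums were higher beside the shFto lines, and the fatty acid sum rests mainly on Fasn, Acly and Acaca. Groups did not overlap for 19 of the 34 members, where 51.1% of all genes tested had groups that did not overlap.

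Of the related lists in T cells, 4 of 14 genes on the isoprenoid list were higher and 10 did not pass. Over all genes tested in the averaged comparison 20.3% were higher and 12.7% lower. Rabggtb, a subunit of the enzyme that attaches geranylgeranyl to Rab proteins, had 133 and 132 CPM beside shFto-1, 166 and 168 beside shFto-2, and 69.5 and 68.2 beside shNC (1.11 ± 0.091, adjusted p = 3.74e-05). Nus1, needed for dolichol (0.72 ± 0.093), and Coq2, needed for ubiquinone (0.68 ± 0.135), were also higher. Of 17 tested uptake, transport, storage and efflux genes 3 were higher and 6 lower. Gramd1b had 733 and 772 CPM beside shFto-1, 1050 and 1070 beside shFto-2, and 330 and 313 beside shNC (1.48 ± 0.08, adjusted p = 1.94e-05), whereas Abcg1, a cholesterol exporter, had 57.4 and 54.3 CPM beside shFto-1, 44.5 and 26.9 beside shFto-2, and 123 and 116 beside shNC (-1.4 ± 0.16, adjusted p = 0.000141). Mylip, which marks lipoprotein receptors for breakdown, was lower too (-1.04 ± 0.112, adjusted p = 0.000108). Gramd1b was thus higher in T cells beside shFto lines and lower in shFto tumour cells, a difference that was not tested.

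Of 12 SREBP processing and sterol sensing genes 2 were higher in T cells and 10 did not pass. The shares of all genes, here and for the lists that follow, were again 20.3% higher and 12.7% lower. Tmem97, a sterol-responsive membrane protein, had 26.3 and 24.6 CPM beside shFto-1, 29.4 and 26.9 beside shFto-2, and 4.63 and 10.2 beside shNC (1.72 ± 0.248, adjusted p = 0.000527). Of 20 tested other fatty acid and glycerolipid genes 8 were higher and 3 lower. The acyl-CoA synthetases Acsl5 (0.97 ± 0.09, adjusted p = 5.43e-05) and Acsl4 (0.63 ± 0.091, adjusted p = 0.000558) were higher, and Lpin1, a phosphatidate phosphatase, was lower (-1.56 ± 0.155, adjusted p = 7.44e-05). Of 19 fatty acid oxidation genes 4 were lower and 15 did not pass. Hadhb of the mitochondrial trifunctional protein was among the lower ones (-1.05 ± 0.178, adjusted p = 0.00128), and Acadl, a long-chain dehydrogenase (-0.62 ± 0.115, adjusted p = 0.00215, range 1.05e-06 to 0.0538), was lost without shNC replicate 2 (0.0538).

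Some calls were shared between the tumour cells and the T cells. In the sterol branch Sqle, Cyp51, Hsd17b7 and Insig1 were higher in both. That is 44.4% of the 9 tumour calls and 36.4% of the 11 T cell calls, which include Insig2, called lower. Of the 22 sterol genes 9 were higher in tumour cells and 10 in T cells, so some overlap would arise in any case. The share of all genes called in both was not computed. Hmgcs1, Msmo1, Sc5d and Dhcr7 passed in the tumour cells and not in the T cells, and Idi1, Fdps, Fdft1, Lss, Srebf2 and Scap in the T cells and not in the tumour cells. In the fatty acid branch Acaca was higher and Scd2 lower in both. Fasn was lower in shFto tumour cells and higher in T cells beside shFto lines, and Elovl5 the reverse. Differences between the cell types were not tested, since the tables were fitted apart and the T cells carry no hairpin.

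m6A peaks were read from 1 list per condition, so their fold enrichments, the peak caller's own ratio of antibody over input, have no replicates. Of the 34 members 14 had a peak in the shFto list, 16 in the Dac51 list and 14 in the shNC list. Among 11041 genes with at least 10 counts in every tumour library the shares were 55.5%, 52.1% and 45.8%. Over all lists 19 members had a peak, 14 of the sterol branch and 5 of the fatty acid branch, and 15 had none. The peaks fell into 30 regions, joined where they overlapped by at least 1 base. Of these 12 were in all 3 lists, 6 in the Dac51 list alone, 4 in the shNC list alone and 2 in the shFto list alone. Of the 30 regions 18 lay within 2000 bases of the gene's end. The members' peaks had lower fold enrichments than the lists as a whole. Their median was 2.95 in the shFto list, 2.27 in the Dac51 list and 2.08 in the shNC list. The lists as a whole had 6.19, 5.75 and 5.05. A low fold could still carry a very small p from the peak caller, as for Scd2 in shNC cells (fold 2.18, log10 p of -602). Coordinates are those of the files, on mm10.

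The sterol branch's strongest peak was in Sqle. It covered chr15:59315480-59315898 on the plus strand, 388 bases from the gene's start, with the same edges in every list, and its fold enrichment was 10.0 in shFto cells, 9.54 with Dac51 and 6.22 in shNC cells. A second Sqle region at the gene's end had 2.75 in shFto cells and 1.72 in shNC cells. Most other shared sterol regions lay nearer the end of the gene. Lss had 3.66 in shFto cells, 3.43 with Dac51 and 1.84 in shNC cells, at 84.8% of the gene's span in shFto cells. Msmo1 had 3.52 in shFto cells, 3.0 with Dac51 and 2.23 in shNC cells. Hmgcs1 had 2.92 in shFto cells, 2.19 with Dac51 and 1.7 in shNC cells. These 4 genes had the same order of lists. Dhcr7 had 2.96 in shFto cells, 1.85 with Dac51 and 2.76 in shNC cells, and Sc5d had 1.86, 1.79 and 2.2, so these genes did not share that order. Insig2, Srebf2, Scap, Stard4, Idi1, Fdps, Mvd and Tm7sf2 had no peak in any list.

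In the fatty acid branch the peaks crowded at the end of Acaca. The region at chr11:84399767-84400305 on the plus strand had a fold enrichment of 6.49 in shFto cells, 18.4 with Dac51 and 9.42 in shNC cells. The next, at chr11:84400844-84401173, had 6.86 in shFto cells, 10.9 with Dac51 and 3.44 in shNC cells, and the last had 3.15, 4.42 and 2.28. Dac51 thus had the highest value in all 3, while shFto lay below shNC in the first and above it in the others. Scd2 had 3.46 in shFto cells, 3.91 with Dac51 and 2.18 in shNC cells. Elovl6 went the other way in its shared region, with 2.94 in shFto cells, 3.33 with Dac51 and 5.28 in shNC cells, although another region of the same gene was in the shFto list (4.39) and the Dac51 list (2.15) and not in the shNC list. Fasn had 1.79 in shFto cells, 1.42 with Dac51 and 1.75 in shNC cells in its shared region, and a peak of 7.29 near its end in the shFto list alone. That peak was 91 bases long with a peak caller's p of 0.0011, against 1e-125 for the first Acaca region in the same list. Srebf1, Acly, Acss2, Scd1, Fads1, Fads2 and Me1 had no peak in any list.

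**Figure D4:**
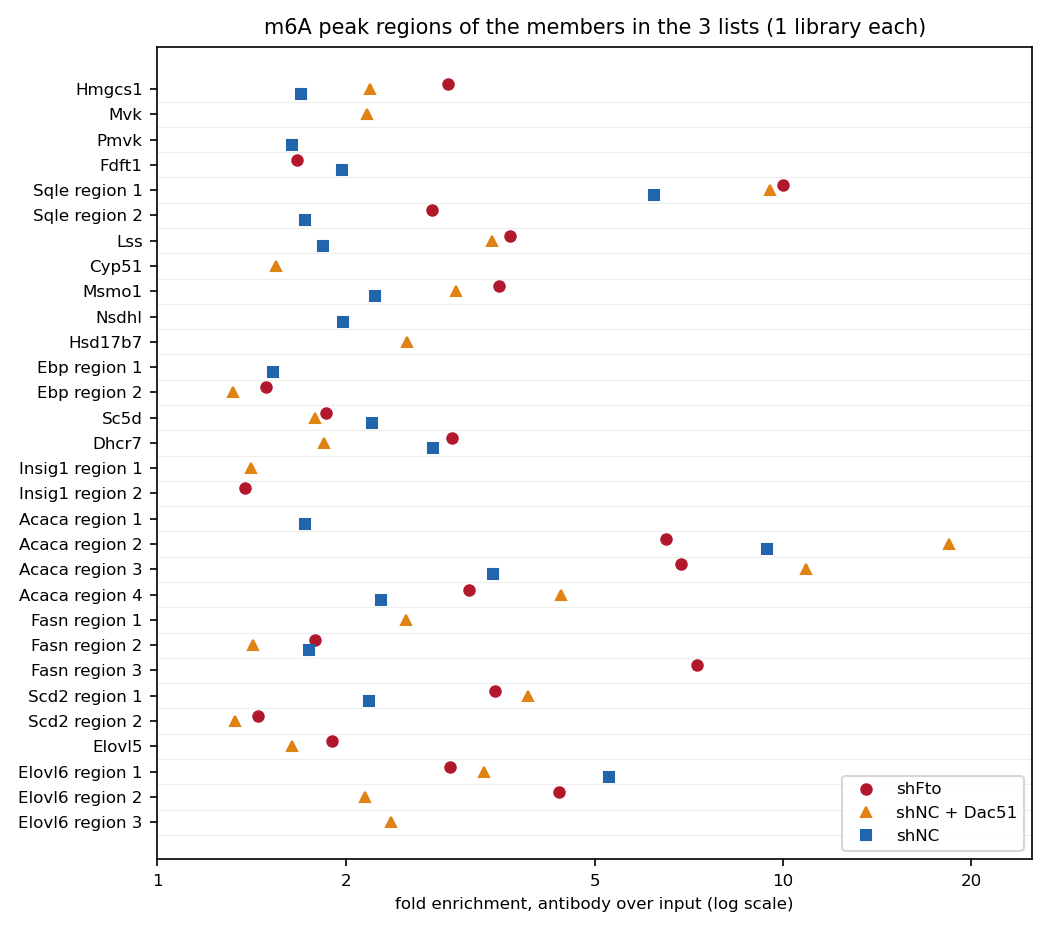
Fold enrichment of antibody over input (log axis) for the 30 m6A regions of 19 members in the shFto (circles), shNC plus Dac51 (triangles) and shNC (squares) lists, 1 library each, with the sterol branch above and the fatty acid branch from Acaca down. Sqle region 1 reaches 10.0 in shFto cells and Acaca region 2 reaches 18.4 with Dac51, while most regions lie under 5 and several appear in a single list.

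Of the 14 member regions in both the shFto and shNC lists, 10 had a fold enrichment ratio above 1, with a median ratio of 1.48. Over 6578 regions of all genes 79.4% were above 1, with a median of 1.45. Of the 12 member regions in both the Dac51 and shNC lists 8 were above 1, with a median of 1.44, where 6427 regions of all genes had 77.7% above 1 and a median of 1.41. The members' medians were close to those of all regions. Regions present in 1 list alone had folds of 1.38 to 7.29.

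Taken by the median, open chromatin at the gene starts differed little between shFto and shNC tumour cells. A start could be placed for 30 members. Of these 29 had an ATAC peak within 500 bases of it in all 6 libraries, where 95.0% of 8518 expressed genes did, and Fdft1 had a peak in none of the 6. For Fdft1, Sqle and Scd2 the start was not a RefSeq promoter but the end of the gene's span that the strand of its m6A peak points from, so it may be misplaced. The ratio of mean fold enrichment, shFto over shNC, had a median of 0.973 over the 29 members and 0.969 over all genes with a peak in every library. Groups did not overlap for 6 of the 29, close to the share of all such genes, which was 19.9%. Acaca was higher in shFto cells, with 12.6, 14.1 and 13.2 against 10.6, 10.9 and 10.2 in shNC cells (13.3 ± 0.732 and 10.6 ± 0.341, SD, n = 3 each, ratio 1.25), and 3.46% of all genes were likewise higher in every shFto library. Mvd, Nsdhl, Acly, Scd2 and Elovl5 were lower, with ratios of 0.887 to 0.964, the upper end being close to the median of all genes. Every shFto library held fewer ATAC peaks in all (67427 to 72055) than every shNC library (74551 to 81944). The exact permutation test gave p = 0.1 (two-sided) for each of the 6, the smallest that 3 against 3 libraries allow. Without shNC replicate 3 the count of members that did not overlap was 11. Leaving out a library can only keep or raise this count, and the share of all genes was not computed for that setting.

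Set beside RNA, Acaca was higher in shFto cells by both measures and Scd2 lower by both, whereas Elovl5 was higher in RNA with a lower ATAC ratio of 0.887. On the ATAC side each of these genes had an exact permutation p of 0.1 (two-sided), the smallest possible, so none could pass. Sc5d (0.921), Insig2 (1.0), Dhcr7 (1.01) and Srebf1 (0.971), whose RNA changed in shFto cells, had ATAC groups that overlapped. Srebf1 had a fold enrichment of 10.8, 11.4 and 11.0 at its starts in shFto cells and 12.3, 11.0 and 11.0 in shNC cells (exact permutation p = 0.7, two-sided).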

How the data were processed

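RNA was measured as counts per gene symbol, deposited by the authors as whole numbers in a table for each cell type. Trim Galore 0.6.0, Bowtie2 2.3.5, STAR 2.7.0f, MACS2 2.1.3, Picard, deepTools and the build mm10 stand in the submitters' processing notes without roles. The counter, its strand setting and the handling of reads with several matches are not given in the sources used here. The ATAC peak lists, deposited by the authors per library, hold for each peak a fold enrichment over background, −log10 p and q values, and a score derived from the −log10 q. The m6A peak lists, deposited by the authors as exomePeak output with 1 list per condition, hold a p-value, its log10 as a score, and a fold enrichment of antibody over input, per the file headers. In the text the m6A and ATAC folds are the authors' own.

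From these, each RNA table was fitted across all groups with edgeR 4.0.16 in R 4.3.3 (TMM scaling, a filter on low counts, quasi-likelihood test, Benjamini-Hochberg adjustment over all genes tested, threshold 0.05). DESeq2 1.42.0, other scalings, no filter, a block for the replicate number and leaving out each library were tried as alternatives. On simulated counts with 200 genes changed, edgeR recovered 92% of 2-fold and 98% of 4-fold changes in the tumour comparison. For T cells beside shFto-2 it recovered 54% and 66%. Far more genes were called in the data than were changed in the simulation, so recovery there may differ. ATAC values are the largest fold enrichment within 500 bases of a start, compared by an exact permutation test in SciPy 1.17.1. Replicate libraries differed by more than sampling noise, so none was merged. Same-numbered libraries did not deviate together throughout (correlations of -0.011 to 0.049 in tumour cells and -0.333 to 0.361 in T cells), so they were not treated as pairs.

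The members and the gene lists were chosen with earlier results of these data known. Values in every library were given for up to 6 members of each branch with the smallest adjusted p in each comparison against shNC, and for Srebf1, Srebf2, Insig1, Insig2, Hmgcs1, Sqle, Acaca, Fasn, Scd1 and Scd2. Those of the other members and of Tmem97, Rabggtb, Gramd1b and Abcg1 were added after they had been seen. Genes of other lists were named for up to 3 per list with the smallest adjusted p. Some genes that this rule would name are not reported here. The 8 promoters were picked after the values were seen, and no m6A region is printed because no genome was used here.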

Additional observations from a re-analysis of the deposited data

Results flagged for a closer look

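For Insig2 and Elovl5 every tumour cell library of shFto lay on one side of every shNC library, and every T cell library beside an shFto line lay on the opposite side of both libraries beside shNC. Insig2 had a log2 fold change of 0.73 in shFto over shNC tumour cells and -0.61 in T cells beside shFto lines over those beside shNC. Elovl5 had 0.42 in tumour cells and -0.88 in T cells. The difference between the cell types was not tested for either gene, and the T cells carry no hairpin.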

How the results depend on the processing

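Over all members, comparisons and alternatives 1860 values were recomputed, of which 1741 kept their side of the threshold, 77 lost a call and 42 gained one. In 0 cases did a value called in the main fit or in the alternative change direction. Changes of direction among values called in neither fit were not counted, and some occurred. Stard4 beside shFto-1, not called, had 0.45 in the main fit and -0.37 to 0.87 in the alternatives. Leaving out 1 library at a time moved the genes called in tumour cells (3841) to between 2468 and 4423, with 0 to 1 sterol genes lower. For T cells beside shFto-1 it gave 1587 to 2296 genes in place of 2851, 3 to 8 sterol genes higher in place of 6, and 1 to 3 fatty acid genes lower in place of 3. Beside shFto-2 it gave 0 sterol genes lower in place of 1, as did no filter (0). For the mean of the lines it gave 6 to 9 sterol genes higher in place of 10 and 0 to 1 lower in place of 1. Library totals gave 1 sterol gene lower beside shFto-1, and for the mean of the lines 6 sterol genes higher and 5 fatty acid genes lower in place of 3, while no filter gave 0 sterol genes lower. Between the lines, the 256 genes called became 147 with DESeq2's size factors, 1088 with DESeq2, 838 with no filter, 112 with the 2 groups alone, and 1 to 507 with a library left out. There DESeq2 and no filter each called 3 fatty acid genes higher and 2 lower, and leaving out a library 0 to 1 in each direction. With the replicate block the calls were 3736 in tumour cells, 4223 for the mean of the lines, 2902 beside shFto-1, 4299 beside shFto-2 with 0 sterol genes lower, and 446 between the lines with 3 fatty acid genes higher. Swapping the shNC numbers in that block, chosen after seeing the data, gave 3082 calls beside shFto-1, 4524 beside shFto-2 and 4467 for the mean of the lines. With a fold enrichment of at least 2, members with an m6A peak numbered 9 in the shFto list, 10 with Dac51 and 7 in the shNC list, in 18 regions, 7 of them in all 3 lists. The 6 members with ATAC groups that did not overlap became 8 to 11 with a library left out. Groups of fewer libraries are easier to separate, so this count could only stay or rise. The share of all genes at that setting was not computed. The cause of the other shifts was not tested. With 2 libraries a group and 200 genes changed, 54% of simulated 2-fold changes were recovered in T cells beside shFto-2. The m6A lists give no replicate spread.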
